A study of Mus musculus with 9 samples.

Results

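Described here are the genes that the annotation classes as TEC, antisense or sense_intronic in the table comparing MGH-CP1 with vehicle. They were chosen by that class alone and number 95 of the 471 genes in the table: 60 TEC, 28 antisense and 7 sense_intronic genes. EHE17 is a mouse endothelial tumour cell line of genotype TC+/+ Cdkn2a -/-, so every group lacks Cdkn2a, the tumour suppressor locus that encodes p16 and p19Arf. Of 3 libraries per group, one group received the DMSO vehicle, another 10 µM MGH-CP1 for 16 h and another 300 nM dinaciclib for 16 h. The table for dinaciclib holds 251 genes and none of these classes, so its libraries enter no comparison here. By its name that table is a list of cancer genes, so it does not show whether dinaciclib changed genes of these classes. All results come from 1 cell line, and the labels call the replicates biological without saying what was repeated.

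MGH-CP1 blocks the palmitoylation of TEAD transcription factors, through which the coactivators YAP and TAZ reach DNA. In the GENCODE annotation, TEC marks a region with evidence of transcription that still awaits experimental proof. An antisense gene lies on the strand opposite another gene, and a sense_intronic gene lies within an intron of another gene on its own strand. Antisense RNAs can silence or tune their partners, as Kcnq1ot1 does at an imprinted cluster. A read inside an intron may also come from the unspliced transcript of the gene around it. These libraries were made from RNA captured on poly-T beads, copied with random primers and not marked for strand, by the labels' protocols. Reads of a gene and of its antisense partner therefore cannot be told apart in these counts, and neither can reads of an intronic TEC gene and of the unspliced gene around it.

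Because capture depends on a stretch of A, the 3′ ends of members that the results turn on are shown first. Each is the last 60 bases of the annotated transcript, 5′ to 3′ on the gene's own strand, in GRCm38. Capitals mark every AATAAA, overlapping matches included. It is the canonical poly(A) signal, which lies shortly before the cleavage site of most messages. Gm38346, Gm37474 and Gm37082 lie in an intron of Fli1, Gm37333 in an intron of Nav1, and Gm37352 overlaps no other gene. All of these were higher with MGH-CP1, as were Gm43336, Gm45137 and Kcnq1ot1, while Gm45133 and Gm45663 were lower.
Gm38346 (chr9:32507745-32507804, minus strand): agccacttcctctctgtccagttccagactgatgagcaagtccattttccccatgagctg
Gm37474 (chr9:32525145-32525204, minus strand): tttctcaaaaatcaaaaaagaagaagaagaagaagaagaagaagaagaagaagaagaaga
Gm37082 (chr9:32535251-32535310, minus strand): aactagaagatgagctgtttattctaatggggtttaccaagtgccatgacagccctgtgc
Gm37333 (chr1:135523088-135523147, minus strand): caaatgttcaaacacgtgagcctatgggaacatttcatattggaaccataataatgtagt
Gm37352 (chr8:84202990-84203049, plus strand): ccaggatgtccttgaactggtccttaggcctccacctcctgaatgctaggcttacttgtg
Gm43336 (chr5:113900395-113900454, minus strand): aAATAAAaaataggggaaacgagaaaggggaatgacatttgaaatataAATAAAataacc
Gm45137 (chr7:121043493-121043552, plus strand): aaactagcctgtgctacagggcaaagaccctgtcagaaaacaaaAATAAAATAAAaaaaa
Kcnq1ot1 (chr7:143203458-143203517, minus strand): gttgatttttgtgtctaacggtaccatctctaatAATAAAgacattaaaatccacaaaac
Gm45133 (chr7:5059277-5059336, minus strand): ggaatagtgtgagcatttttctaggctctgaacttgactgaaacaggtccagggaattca
Gm45663 (chr8:104154278-104154337, plus strand): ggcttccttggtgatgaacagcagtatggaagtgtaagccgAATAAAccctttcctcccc

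Few of the TEC genes that were higher end in this signal. AATAAA, searched on the gene's own strand, lay in the last 50 bases of 2 of 56 (3.57%), Gm43336 and Gm45137, against 21.7% of all 3219 annotated TEC genes. Among TEC genes inside a same-strand gene the members' share was 4.35% of 46 and the annotated share 15.3% of 1624. Of the antisense genes that were higher, 10 of 26 (38.5%) held the signal, against 33.4% of all 2959 annotated antisense genes. Those members are long, with a median of 2244.5 bases against 847 over the annotation. Of annotated antisense genes of at least 2000 bases, 47.6% held the signal, a larger share than that of the members. For sense_intronic genes the share was 1 of 7, against 21.4% of 327. These shares are descriptions with no test, and the absence of the letters says nothing of where an RNA ends.

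Stretches of A within a transcript can also pair with poly-T. A run of 12 or more A stood on the gene's own strand in 9 of the 56 TEC genes that were higher (16.1%), against 10.3% of all annotated TEC genes and 13.0% of those of at least 2000 bases. Runs of 12 or more T, which read as A on the other strand, stood in 12 of the 56 (21.4%), against 14.8% of all annotated TEC genes and 22.3% of the long ones. Of the 26 antisense genes that were higher, 4 (15.4%) held a run of 12 or more A on their own strand. The share was 4.93% of annotated antisense genes and 10.4% of those of at least 2000 bases. The members are long for their class, with a median of 2997 bases among the TEC genes that were higher against 1958 over the annotation. Windows from 4 of them are shown with the run in capitals and 20 bases on either side.
Gm37333 (chr1:135524851-135524904, minus strand): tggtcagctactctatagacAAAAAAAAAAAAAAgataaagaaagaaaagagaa
Gm43336 (chr5:113900933-113900984, minus strand): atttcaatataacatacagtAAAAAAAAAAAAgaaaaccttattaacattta
Gm47625 (chr10:116284784-116284838, plus strand): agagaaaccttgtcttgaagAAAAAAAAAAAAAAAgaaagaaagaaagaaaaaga
Gm37033 (chr1:180361322-180361379, plus strand): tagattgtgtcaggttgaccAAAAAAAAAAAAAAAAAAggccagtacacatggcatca

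Of the 95 genes, 89 were higher with MGH-CP1 and 6 were lower in the authors' deposited table. By class, 56 of 60 TEC genes, 26 of 28 antisense genes and all 7 sense_intronic genes were higher. Of all 471 listed genes, 57.3% were higher, and of the 376 genes of other classes 48.1%, with 102 of 211 protein-coding genes and 39 of 109 processed pseudogenes higher. Every gene in the table had passed an adjusted p under 0.05 and a change of at least 1 on the log2 scale in the authors' own comparison of these libraries. The counts therefore say which way the listed genes moved, and nothing of how often genes of these classes changed.

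The members are weakly covered. Their median over the 6 libraries was 6.49 normalised counts, a normalised count being the read count divided by the library's size factor. Above that median 41 of 47 members (87.2%) were higher, against 157 of 339 genes of other classes (46.3%). At or under it 48 of 48 members were higher, against 24 of 37 genes of other classes (64.9%). The parts were not alike in level: above the median the members' own median was 10.9 normalised counts and that of the other classes 41.9. The mean also includes the change itself, so the part of low coverage in the direction of the members was not tested.

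Replicate ranges were apart in all but 5 members. In 84 all MGH-CP1 libraries lay above all vehicle libraries, and in 6 all lay below, where the background over the table was 55.4% above and 42.3% below. The ranges overlapped in Gm38043, Gm37298, Gm42731, Gm42929 and Gm16059, which are named for that overlap. Gm42731, in an intron of the endocytic adaptor gene Hip1, had 0, 4 and 11 counts with MGH-CP1 and 0, 0 and 1 with vehicle, so 1 treated library held most of its reads.

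Only 34 of the 95 members had enough counts for edgeR's quasi-likelihood test, which covered 355 listed genes. With Benjamini-Hochberg adjustment 28 of them were called higher and 6 lower, where the background over the table was 49.3% higher and 50.7% lower. By class, 16 TEC, 10 antisense and 2 sense_intronic genes were called higher, and 4 TEC and 2 antisense genes lower. All 355 tested genes were called (100%), as the table had been picked on the same libraries, so a call is no independent evidence. Members with few vehicle counts had enough counts for the test only through the MGH-CP1 libraries. Such members could be called only as higher. Gm43906 and Gm45663 had enough counts only through the vehicle libraries and could be called only as lower. The median log2 change was 1.62 over the 34 tested members and -1.01 over all 355 tested genes.

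**Figure D1:**
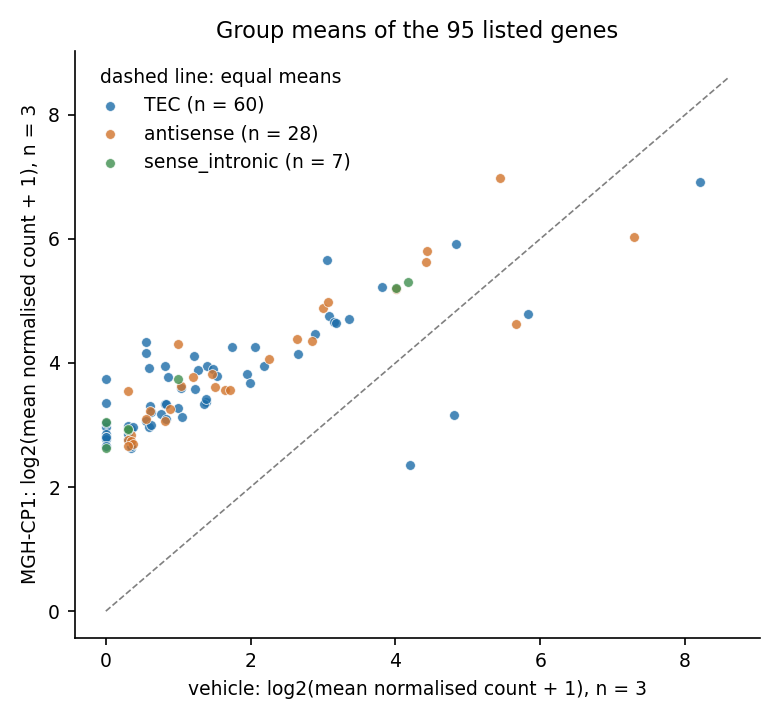
Mean normalised count of each of the 95 genes with vehicle (x) and MGH-CP1 (y), both as log2(mean + 1), with n = 3 libraries per group and color for the class. The 89 points above the dashed line of equal means reach the left edge, where 11 genes had no vehicle counts, and the 6 points below it lie at middle and high levels.

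Levels were low throughout. Summed over the 3 MGH-CP1 libraries, members had 10 to 301 counts each, with a median of 26 against 4 in vehicle. In vehicle 11 members had no count at all and 33 had 1 to 3 counts, while none was without counts in the MGH-CP1 libraries. On the FPKM scale, which divides by gene length and library size, their means with MGH-CP1 ran from 0.0241 to 3.65 with a median of 0.140, against a median of 0.0136 with vehicle. The raw count was higher with MGH-CP1 in 89 members although those libraries were shallower, at 19934012 to 24310817 counts against 31852117 to 40020833.

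Together the listed members made up a small part of each library. The members took 0.00543%, 0.00637% and 0.00577% of all counts in the MGH-CP1 libraries and 0.00307%, 0.00327% and 0.00343% in the vehicle libraries. The groups did not overlap, and the ratio of their means was 1.80. The members were picked for change on these libraries, so the separation and the ratio are descriptions. They do not cover the unlisted genes of these classes. That ratio leaned on Gm45133, the member of highest mean count, which was lower with MGH-CP1: without it the ratio was 2.46. Libraries with MGH-CP1 held counts for 93, 95 and 95 of the members, and libraries with vehicle for 56, 57 and 73.

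Most members that were higher lie inside another gene. Of the 56 TEC genes that were higher, 46 (82.1%) sit within a gene on the same strand and share no exon base with it, against 50.5% of all annotated TEC genes. A further 3 share exon bases with a same-strand gene, 5 overlap only a gene on the opposite strand, and 2, Gm37352 and 2810428J06Rik, overlap none. None of the 4 TEC genes that were lower lies inside a same-strand gene: 3 overlap no other gene and 1 overlaps an opposite-strand gene. All 7 sense_intronic members lie inside a same-strand gene, as 96.9% of that class do in the annotation. The 83 genes that hold or face members, 76 of them protein-coding, are not in the table for MGH-CP1 unless they are members themselves, so their levels with MGH-CP1 were not analysed here.

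**Figure D2:**
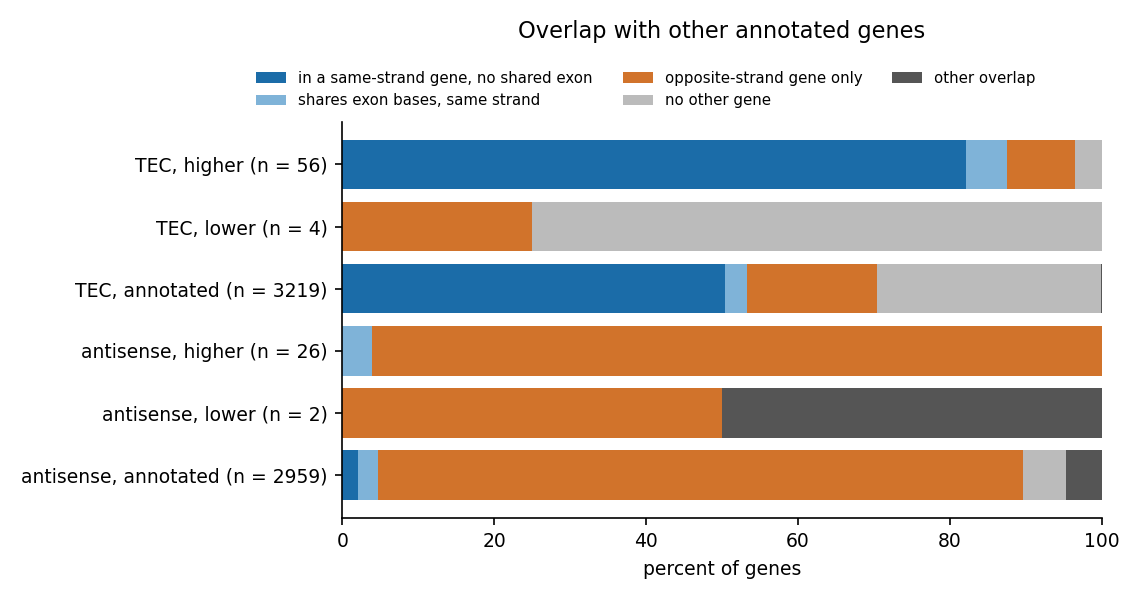
Share of genes (percent, x) in each kind of overlap with other GENCODE genes, for TEC and antisense members that were higher or lower with MGH-CP1 and for all annotated genes of each class (rows). The bar for a place inside a same-strand gene without shared exon covers 82.1% of the TEC genes that were higher and 50.5% of the annotated TEC genes.

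The intronic members were summed to show them library by library. The 53 TEC and sense_intronic genes inside a same-strand gene, all of them higher, summed to 596, 777 and 697 normalised counts with MGH-CP1 and to 107, 134 and 152 with vehicle. Every treated library stood above every vehicle library. Raw counts were 514, 550 and 586 against 121, 163 and 218. The members were picked for change on these libraries and all were higher. The separation of the groups and the size of the gap therefore follow from that choice and are descriptions.

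They lie near the beginnings of the genes that hold them. Measured along the surrounding gene, the intronic members began at a median of 18.1% of its span and 15.9 kb from its start, against 40.9% and 54.3 kb for 1941 annotated intronic genes of the same classes. With the span cut into 10 equal parts, 27 of 53 (50.9%) began in the first 2, against 26.3% in the annotation. Of the 46 intronic TEC members, 16 (34.8%) lie in the first intron and 31 (67.4%) in the longest, against 21.5% and 50.4% of annotated intronic TEC genes. The genes that hold them are shorter, with a median span of 94.3 kb against 165 kb. These shares were not tested.

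**Figure D3:**
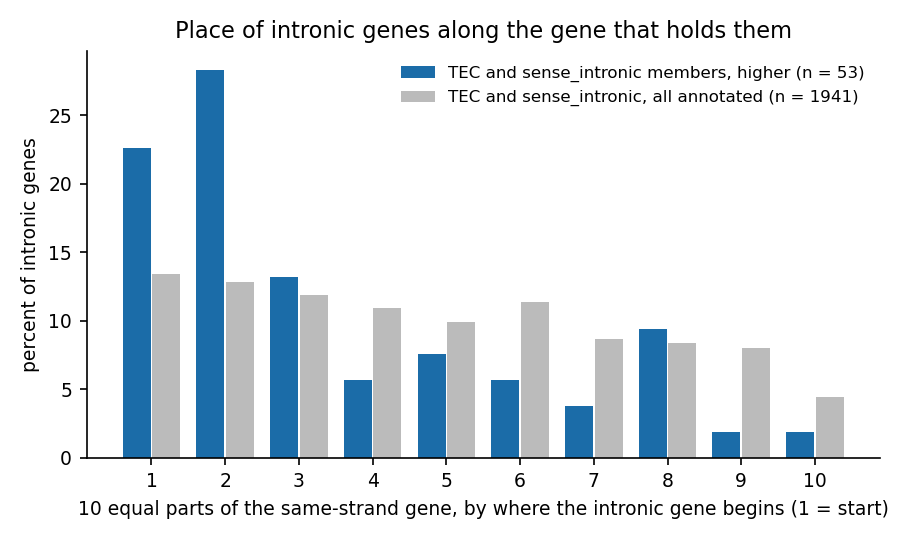
Percent of intronic genes (y) that begin in each of 10 equal parts of the same-strand gene around them (x, 1 is the start), for the 53 TEC and sense_intronic members that were higher (blue) and for 1941 annotated genes of the same classes (grey). The members' bars reach 22.6% and 28.3% in the first 2 parts, where the annotated genes have 13.4% and 12.8%.

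Fli1 held more members than any other gene. Fli1 encodes an ETS transcription factor that helps to specify and maintain endothelium and blood. It lies on the minus strand of chromosome 9 and spans 120.7 kb (GRCm38 chr9:32422204-32542861). Gm37082, Gm37474 and Gm38346 are single-exon TEC genes on its strand, 5.68, 15.9 and 32.5 kb from its start, all in its second intron of 64.4 kb. Gm27201 is an antisense gene of 3 exons on the opposite strand, and 88 of its exon bases lie across from Gm38346, so reads there could belong to either. No other member overlapped a listed gene.

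All of these genes in Fli1 had few vehicle reads. Gm38346 had 6, 15 and 12 counts with MGH-CP1 and 0, 1 and 1 with vehicle. Gm37474 had 10, 12 and 8 against 2, 0 and 1, and Gm37082 had 7, 10 and 9 against 3, 0 and 2. Gm27201 had 2, 8 and 2 against 0, 0 and 1. In each gene every treated library exceeded every vehicle library.

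With so few vehicle counts the folds are wide. A pooled fold, the summed counts over the summed size factors of each group, was 25.9 for Gm38346 (exact 95% interval 6.62 to 222.6), 15.7 for Gm37474 (4.88 to 80.3), 8.16 for Gm37082 (3.08 to 27.2) and 18.8 for Gm27201 (2.79 to 804.7). These Clopper-Pearson intervals cover counting error only. For Gm27201 single libraries set the value, which was 8.88 without MGH-CP1 replicate 2. Without vehicle replicate 3 no vehicle count of Gm27201 was left, and the fold was at least 3.90, the bound set by 3 counts over the vehicle group. None of these genes had enough counts for the edgeR test.

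The level of Fli1 itself is known for vehicle only, from the table for dinaciclib, whose vehicle values matched those of the other table to rounding in the 2 genes that both hold. Fli1 stood at 31.6, 31.7 and 32.7 FPKM. In vehicle Gm37474 was at 0.0504% of that level per length, Gm38346 at 0.0214%, Gm37082 at 0.0779% and Gm27201 at 0.0626%. With MGH-CP1 the members reached 0.776%, 0.594%, 0.632% and 1.42% of the vehicle level of Fli1, in that order. Each stayed under 2% of it per length in either group.

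**Figure D4:**
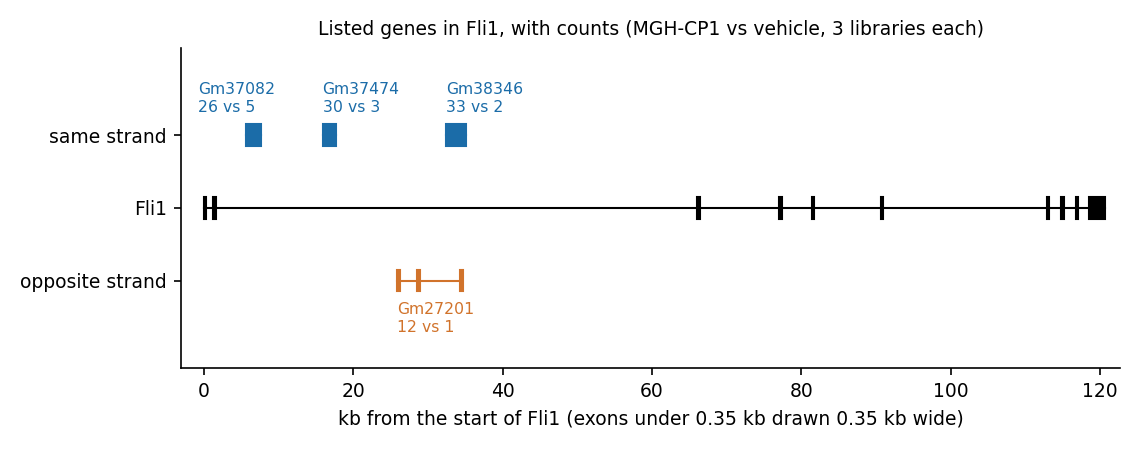
Map of Fli1 with distance from its start in kb (x), its exons in black, members on its strand in blue above and the antisense member in orange below, each with its summed counts in 3 MGH-CP1 and 3 vehicle libraries. The same-strand members fall in the long second intron, and summed counts run from 12 to 33 with MGH-CP1 and from 1 to 5 with vehicle.

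The same comparison could be made for 6 more surrounding genes that the table for dinaciclib lists. In vehicle, the members in or across Fgfr1, Tpm4, Abl2, Notch2, Hip1 and Maml2 stood at 0.0175% to 0.329% of the gene around them per length. With MGH-CP1 they reached 0.129% to 1.51% of that vehicle level. The lowest of these was Gm26586 across from Tpm4, a tropomyosin gene at 484 FPKM, and the highest was Gm47087 in Maml2, a Notch coactivator gene at 7.29 FPKM. No order is read from these shares, since the surrounding gene's level with MGH-CP1 was not analysed here.

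Among TEC genes tested by edgeR and at or above the members' median level, the largest rises were in Gm37238, Gm48958, Gm43336 and Gm43011. Each entered the test through its MGH-CP1 counts alone, so its adjusted p is no independent evidence of a rise. All of these are single-exon genes in an intron of a same-strand gene, 1.47 to 10.7 kb from its start. Gm37238 (chr13:48542644-48545033), in the gene 6720427I07Rik, had 22.01, 14.1 and 21.4 normalised counts with MGH-CP1 and 0, 0 and 1.40 with vehicle. Only 1 vehicle library held any read of it. Its pooled fold was 36.9 (9.65 to 313.3), and its adjusted p was 0.000113 by the edgeR quasi-likelihood test. Without that library, vehicle replicate 3, no vehicle count was left and the fold was at least 15.3.

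Gm48958 (chr14:46893520-46896483) lies in Samd4, which encodes an RNA-binding repressor of translation. It had 17.4, 22.6 and 10.7 normalised counts against 0, 0 and 1.40, a pooled fold of 31.4 (8.14 to 268.0; edgeR adjusted p 0.000216). As in Gm37238, vehicle reads came from replicate 3 alone, and without it the fold was at least 13.0.

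Gm43336 (chr5:113900395-113904898) lies in the first intron of Coro1c, a coronin gene of the actin cytoskeleton. Its treated libraries were close together at 13.9, 14.1 and 15.5 normalised counts, and vehicle had 0.882, 0 and 1.40. The pooled fold was 18.3 (5.77 to 93.0; edgeR adjusted p 0.000167), and 34.1 (5.73 to 1386) without vehicle replicate 3. Gm43011 (chr3:126600029-126604461), in the calmodulin kinase gene Camk2d, had 18.5, 19.8 and 10.7 against 1.76, 0.821 and 1.40. Its log2 change was 3.50 (SE 0.522, edgeR adjusted p 0.000167). In both genes the lowest treated library was several times the highest vehicle library.

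Of the 11 members with no vehicle count, 9 were TEC and 2 sense_intronic, and Gm37333, Gm37653 and Gm45223 had the most counts with MGH-CP1. Folds against no count are lower bounds set at 3 counts over the vehicle group. Gm37333, in the fifth intron of the microtubule-binding gene Nav1, had 8, 12 and 9 counts with MGH-CP1, at least 15.2-fold higher. Gm37653, in the first intron of Rc3h1, which encodes the RNA-decay factor Roquin, had 7, 7 and 8 counts, at least 11.5-fold higher. Both were even across the treated libraries. With the deepest vehicle library, replicate 3, left out, the bounds were 9.42 and 7.15.

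Gm45223, in the first intron of the clathrin assembly gene Picalm, was uneven. It had 2, 1 and 15 counts with MGH-CP1, at least 9.41-fold higher, and MGH-CP1 replicate 3 held nearly all of its reads. Without that library the bound was 2.41, and without vehicle replicate 3 it was 5.85.

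A few more members were picked by hand for the known role of their surrounding gene, after their values were seen, and stand for no group. Gm47625 lies in Ptprb, which encodes the vascular endothelial phosphatase VE-PTP, and had 14, 9 and 8 counts with MGH-CP1 and 3, 2 and 2 with vehicle. Gm42900 lies in Tgfbr3, the gene of the TGF-β co-receptor betaglycan, and had 13, 11 and 9 against 4, 0 and 1 (log2 change 3.25, SE 0.676, edgeR adjusted p 0.00114). Gm42819 lies in Notch2 and had 4, 8 and 7 against 0, 0 and 3. Each had only a handful of vehicle reads, and in each the replicate ranges were apart. Gm42900 entered the test through its MGH-CP1 counts alone, so its adjusted p is no independent evidence of a rise.

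Gm38070 lies in Il1r1, the interleukin 1 receptor gene, and had 12, 20 and 10 counts against 5, 2 and 5 (log2 change 2.43, SE 0.518, edgeR adjusted p 0.00132). Itpkb, an inositol trisphosphate kinase gene, held a pair of them. Its Gm37033 had 14, 12 and 18 counts against 7, 1 and 0 (log2 change 3.02, SE 0.707, edgeR adjusted p 0.00209), and its Gm36933 had 3, 4 and 7 against none, at least 7.32-fold higher. Gm38070 and Gm37033 entered the test through their MGH-CP1 counts alone, so neither adjusted p is independent evidence of a rise. Besides Fli1 and Itpkb, the genes Nav1, Gm4258 and 2010111I01Rik held or faced 2 members each, so these members share a surrounding gene and are not independent.

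By mean FPKM over all 6 libraries the highest TEC gene with a rise was Gm36936, in intron 15 of the ubiquitin ligase gene Nedd4. It had 48.7, 67.8 and 61.8 normalised counts with MGH-CP1 and 15.0, 34.5 and 32.8 with vehicle. The lowest treated library stood above the highest vehicle library by less than the range within either group. Its log2 change was 1.10 (SE 0.322, edgeR adjusted p 0.00689), and its level was 0.768 ± 0.127 FPKM against 0.356 ± 0.141 (SD, n = 3). Unlike the genes above it lies far into its surrounding gene, at 75.2% of the span.

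Gm37352, chosen after its values were seen, is the tested rise that lies outside any other gene. It lies at chr8:84200869-84203049 and had 39.4, 63.6 and 45.2 normalised counts with MGH-CP1 against 7.06, 10.7 and 4.19 with vehicle. All treated libraries were over 3 times the highest vehicle library. The log2 change was 2.75 (SE 0.387, edgeR adjusted p 0.000120), with no overlapping gene in the annotation to share its reads. Gm37352 had enough counts for the test only through the MGH-CP1 libraries, so that adjusted p is no independent evidence of a rise.

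The TEC genes that were lower were Gm43906, Gm45663, Gm45133 and Gm47175. Gm45133 (chr7:5059277-5062049) had the highest mean FPKM of the TEC members. It had 137, 134 and 88.0 normalised counts with MGH-CP1 and 287, 310 and 286 with vehicle, so the groups lay far apart. Its log2 change was -1.30 (SE 0.181, edgeR adjusted p 0.000116). It lies across from the coiled-coil gene Ccdc106 and shares 1290 of its 2773 bases with exons on that strand, so part of its reads could belong to that gene.

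Gm43906 (chr6:71105606-71106511) had 5.79, 4.24 and 2.38 normalised counts with MGH-CP1 and 17.6, 20.5 and 14.0 with vehicle (log2 change -2.03, SE 0.443, edgeR adjusted p 0.00149). Gm45663 (chr8:104152706-104154337), which ends in a poly(A) signal, had 5.79, 8.48 and 9.51 against 27.3, 23.8 and 30.0 (log2 change -1.76, SE 0.351, edgeR adjusted p 0.000887). In both the groups were well apart, and both overlap no other gene. Both entered the test through their vehicle counts alone, so neither adjusted p is independent evidence of a fall.

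Gm47175 (chr9:56504825-56506661) also overlaps no other gene and was the least settled of the falls. It had 15.1, 46.6 and 17.8 normalised counts with MGH-CP1 and 56.5, 61.6 and 49.6 with vehicle. MGH-CP1 replicate 2 came close to the vehicle range. The log2 change was -1.10 (SE 0.379, edgeR adjusted p 0.0149). The edgeR adjusted p was 0.0742 without MGH-CP1 replicate 1 and 0.0630 without replicate 3, and without replicate 2 the log2 change was -1.76.

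Antisense genes were mostly higher as well, and nearly all face a gene on the other strand. Of the 26 that were higher, 25 overlap only an opposite-strand gene, against 84.96% of annotated antisense genes. Exon bases were shared with the opposite gene in 16 of the 26 (61.5%). The share was 58.8% of all annotated antisense genes and 70.7% of those of at least 2000 bases. None of these partner genes is listed for MGH-CP1, apart from members.

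The largest tested rises were in Gm4793, Gm10631, Gm26586 and 5830432E09Rik. Each had enough counts for the test only through the MGH-CP1 libraries, so its adjusted p is no independent evidence of a rise. Gm4793 (chr1:135584773-135599948) faces Nav1, shares 589 exon bases with it, and had 13.9, 28.3 and 14.3 normalised counts with MGH-CP1 against 0.882, 0 and 2.09. Its log2 change was 3.99 (SE 0.661, edgeR adjusted p 0.000307). Its pooled fold was 17.3 (6.28 to 66.1), and 42.9 (7.31 to 1732.15) without vehicle replicate 3, where 1 vehicle count was left. Gm10631 (chr8:104177795-104184599) faces Bean1 and had 15.1, 15.5 and 16.6 against 0.882, 9.03 and 1.40. Vehicle replicate 2 stood well above the other vehicle libraries there, and its log2 change of 2.05 (SE 0.624, edgeR adjusted p 0.00810) became 3.62 without it.

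Gm26586 (chr8:72137389-72140820) faces the tropomyosin gene Tpm4 and shares 134 exon bases with it. It had 41.7, 16.95 and 33.3 normalised counts against 3.53, 8.21 and 10.5 (log2 change 2.02, SE 0.454, edgeR adjusted p 0.00173). 5830432E09Rik (chr7:135635931-135652314) faces the receptor-type phosphatase gene Ptpre and had 30.1, 32.5 and 22.6 against 7.06, 4.93 and 9.07 (log2 change 1.98, SE 0.361, edgeR adjusted p 0.000547). In both genes the groups did not overlap, and MGH-CP1 replicate 2 was the lowest treated library of Gm26586 and the highest of 5830432E09Rik.

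Kcnq1ot1, named for what is known of it, is the antisense RNA of the imprinted Kcnq1 domain and silences neighbouring genes on the paternal chromosome. It is annotated as 93092 bases across from Kcnq1. It had 109, 138 and 130 normalised counts with MGH-CP1 and 34.4, 41.1 and 51.6 with vehicle, means of 126 ± 15.2 and 42.4 ± 8.70 (SD, n = 3). The lowest treated library was over 2 times the highest vehicle library, and the log2 change was 1.56 (SE 0.218, edgeR adjusted p 0.000116). Kcnq1ot1 carries the poly(A) signal at its 3′ end, and also a run of 41 A within its transcript. 9330162G02Rik, a TEC gene of 30942 bases across from the imprinted ubiquitin ligase gene Ube3a, had 13.9, 32.5 and 16.6 against 5.29, 4.11 and 9.77 (log2 change 1.64, SE 0.471, edgeR adjusted p 0.00619). It shares 1796 exon bases with the opposite strand, so its reads could belong to either strand. 9330162G02Rik had enough counts for the test only through the MGH-CP1 libraries, so its adjusted p is no independent evidence of a rise.

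By mean FPKM over all 6 libraries the highest antisense genes were Gm44710, Gm4673 and Ppp1r18os. Gm44710 (chr7:28378980-28392514) faces the Mediator subunit gene Med29 and shares 189 of its 471 exon bases with the opposite strand. It had 33.6, 52.3 and 59.4 normalised counts with MGH-CP1 and 16.8, 26.3 and 18.1 with vehicle. The groups were apart, with a log2 change of 1.24 (SE 0.316, edgeR adjusted p 0.00336). Its level was 3.65 ± 1.01 FPKM against 1.55 ± 0.389 (SD, n = 3), the highest of all members with MGH-CP1.

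Gm4673 and Ppp1r18os were the antisense genes that were lower. Gm4673 (chr7:30956909-30961619) had 91.5, 48.0 and 52.3 normalised counts with MGH-CP1 and 176, 114 and 179 with vehicle (log2 change -1.28, SE 0.274, edgeR adjusted p 0.00134). It shares 946 exon bases with the opposite strand, where Lsr, a lipoprotein receptor and tricellular junction gene, lies. It also overlaps the antisense gene Gm17077 on its own strand, with no exon base shared. Ppp1r18os (chr17:35860918-35866886) faces Ppp1r18, a phosphatase subunit gene, shares 270 exon bases with it, and had 32.4, 24.0 and 14.3 against 48.5, 42.7 and 58.6 (log2 change -1.08, SE 0.319, edgeR adjusted p 0.00705). Both stayed below every vehicle library in every treated one.

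The other members named after a gene they face were Arhgap27os3 and Sap30bpos, which share no exon base with Arhgap27 and Sap30bp, in that order. Arhgap27os3 had 13, 12 and 5 counts with MGH-CP1 against 1, 2 and 2, a pooled fold of 9.41 (3.62 to 31.1). Sap30bpos had 8, 3 and 3 against 0, 1 and 0, a pooled fold of 21.96 (3.34 to 928.6). The value for Sap30bpos was 13.6 without vehicle replicate 3. Without vehicle replicate 2 none of its vehicle counts was left, and the fold was at least 4.96. Neither was tested by edgeR for lack of counts.

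A few more antisense genes were likewise picked by hand for the gene they face, after their values were seen. Gm9984 faces Ptprm, an endothelial adhesion phosphatase gene, and had 7, 12 and 6 counts against 0, 0 and 1. 4930466I24Rik faces Fgd5, an endothelial Cdc42 exchange factor gene, and had 7, 4 and 4 against 0, 1 and 0. Gm16159 faces Fgfr1 and had 8, 12 and 11 against 0, 3 and 4, and 1700006J14Rik faces the chromatin gene Hmga2 and had 8, 4 and 6 against 1, 0 and 2. In each, all treated libraries lay above all vehicle libraries at counts too low for the edgeR test.

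All 7 sense_intronic genes were higher, and 2 had counts enough for a test. Gm42664 (chr3:119743208-119746446), in intron 9 of the splicing regulator gene Ptbp2, had 29.0, 39.6 and 39.2 normalised counts with MGH-CP1 and 10.6, 15.6 and 18.8 with vehicle (log2 change 1.23, SE 0.323, edgeR adjusted p 0.00388). Gm17491 (chr8:22480291-22483332), in the first intron of the phosphate transporter gene Slc20a2, had 39.4, 28.3 and 47.5 against 11.5, 22.2 and 17.4 (log2 change 1.17, SE 0.338, edgeR adjusted p 0.00644). In both the groups did not overlap. Gm16014, in the first intron of the NAD hydrolase gene Cd38, had 8, 8 and 1 counts against none, at least 8.89-fold higher, or 5.52-fold without vehicle replicate 3. Together the 7 listed genes, picked for change, summed to 112 ± 1.01 normalised counts with MGH-CP1 and 33.5 ± 9.20 with vehicle (SD, n = 3).

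**Figure D5:**
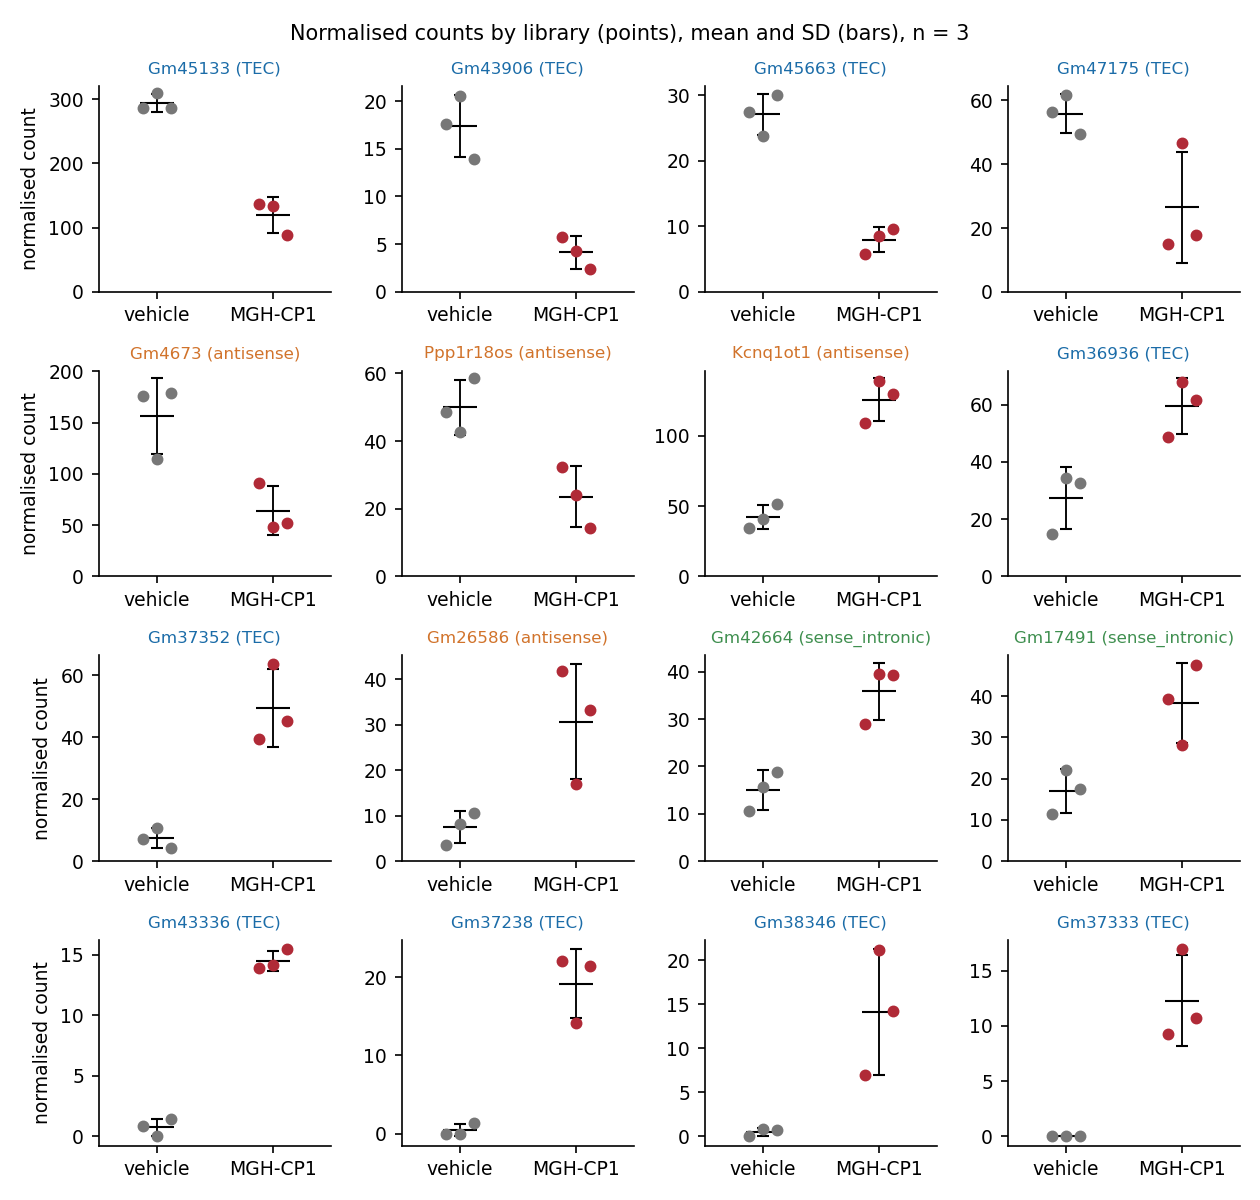
Normalised counts (y) of 16 members in each vehicle (grey) and MGH-CP1 (red) library, with bars for the mean and SD of n = 3. The first 6 panels, from Gm45133 to Ppp1r18os, hold the genes that were lower, where MGH-CP1 replicate 2 of Gm47175 reaches 46.6, and the other 10 hold genes that were higher.

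Some other listed RNAs that poly-T capture usually leaves behind, or that stay in the nucleus, were also higher. Among the nuclear long RNAs searched for, only Malat1, Xist and the member Kcnq1ot1 were listed. Others, such as Neat1 and Meg3, were not. Of the listed RNAs classed as mostly without poly(A) tails, 21 of 21 were higher in the authors' deposited table, against 57.3% of all 471 listed genes. They included 12 replication-dependent histone genes, 5 mitochondrial tRNA genes and 1 mitochondrial rRNA gene. The rRNA gene took 0.614%, 0.803% and 0.342% of all counts with MGH-CP1 and 0.125%, 0.0554% and 0.0402% with vehicle. The nuclear RNA Malat1 had 11346, 13872 and 14069 normalised counts against 1857, 3333 and 2791, and Rn7sk, a small nuclear RNA, 73.0, 114 and 67.7 against 25.6, 4.11 and 9.07. Xist, the RNA that coats the inactive X chromosome, had 10206, 9724 and 12793 against 3851, 6601 and 5567. For each the treated libraries stood above the vehicle libraries, and their part in the members' result was not tested. A further list of 14 genes held YAP, TAZ and TEAD target genes and also Tead1, Tead2, Tead3 and Tead4 themselves. Of these only the target gene Ccdc80 was listed, and it was lower. Of 14 endothelial markers only Vwf was listed, at 20.5 ± 9.20 normalised counts with MGH-CP1 and 66.9 ± 9.07 with vehicle (SD, n = 3), and of 8 leukocyte markers Cd68 was higher, at 54.8 ± 17.6 against 12.2 ± 5.08, and Lyz2 lower, at 92.8 ± 25.7 against 187 ± 16.9. Markers searched for in fibroblasts, mural cells and epithelia were not among the listed genes. In the table for dinaciclib the endothelial receptor gene Kdr stood at 92.3, 91.5 and 87.0 FPKM in the vehicle libraries, beside Fli1. Levels of the other endothelial markers were not analysed here.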

How the data were processed

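RNA-seq libraries of EHE17 cells treated with MGH-CP1 or vehicle were analysed (6 libraries, 3 per group). DESeq2 1.20.0, featureCounts 1.5.0-p3, HISAT2 2.0.5 and fastp are named in the submitters' processing notes. The genome build is not given in the sources used here; GRCm38 is used because the coordinates, lengths and classes of all 95 members match GENCODE M21. The authors deposited read counts, normalised counts (here called a signal, counts divided by a size factor), FPKM, log2 fold changes and adjusted p-values for 471 genes. Size factors and library totals were recovered from these columns (100% of values within a relative tolerance of 0.0001).

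The main test was edgeR 4.0.16 in R 4.3.3, a two-sided quasi-likelihood test on the deposited counts of all listed genes. It used the authors' size factors, a minimum count of 10, Benjamini-Hochberg adjustment over all genes tested and a threshold of 0.05. Alternatives were DESeq2 1.42.0, limma 3.58.1 on log2(FPKM + 1) and log2(FPKM + 0.1), other scalings and filters, the replicate number as a block, and leaving out each library. The test was tried on simulated data first. Pooled folds carry exact 95% Clopper-Pearson intervals, and folds against no count use 3 counts over the group. PCR duplicates were not marked by molecular identifiers, so intervals cover counting error only. Pooled over all listed genes, replicates differed by more than sampling noise (chi-square per degree of freedom from 10.2 to 78.7). Each pair was scaled by its summed counts of these genes, in which the rRNA gene weighs heavily. The value therefore does not give the spread of the members. The p-values set the change against the spread between these libraries.

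The members and lists were chosen with earlier results of these data known. The genes named with values are the 4 largest rises and falls of each class among tested, called members at or above the members' median level with ranges apart. To these were added the 3 of each class with the highest mean FPKM over the 6 libraries, members overlapping a listed gene or named after a gene, and the 3 with most counts among those at 0 in a group. Other names were chosen after values were seen. Members were placed against GENCODE M21 genes by span and exon overlap, and sequences come from its transcripts. RefSeq promoters, held for 10 members, were not used. Vehicle FPKM of surrounding genes came from the dinaciclib table.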

Additional observations from a re-analysis of the deposited data

How the results depend on the processing

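Against 28 members called higher and 6 lower, or 82.4% higher, the counts were the same with TMM factors, total counts as library sizes, DESeq2 and a fit on the members alone. In the main fit 49.3% of all 355 tested genes were called higher and 50.7% lower, and 57.3% of all 471 listed genes were higher. Every tested gene was called there, as the table had been picked on the same libraries, so equal counts are no independent evidence. Members that share no exon base with another gene gave 16 higher and 3 lower. With no filter on counts 89 members were called higher (93.7% of those called), and with limma on log2(FPKM + 1) and no filter 78, as more genes were tested. Leaving out 1 library at a time gave 26 to 28 higher, 5 to 6 lower, 81.8% to 84.4% higher, and ratios of the members' share of counts from 1.72 to 1.86. That ratio was 2.46 without the member of highest mean count, a setting chosen after the data were seen. No named gene reversed direction. Fold sizes of low genes depend on the unit. With limma on log2(FPKM + 1) the folds of 15 of 18 named genes moved by over 1.5 times. On log2(FPKM + 0.1) those of 6 of 18 did. The log2 change of Gm37238 went from 4.91 to 0.35 and 1.84, in that order. The pseudocount is large beside these FPKM values. TMM factors moved the median log2 change of all tested genes by 0.139. The adjusted p of Gm47175, 0.0149, misses a threshold of 0.01.

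With the replicate number as a block, edgeR again called 28 higher and 6 lower (82.4%). The numbers are shared in name only: same-numbered libraries had correlated deviations of 0.0344, -0.106 and 0.0279, so no pairing was used.

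Depth limits these results: 61 of 95 members had too few counts for the test while 11 had no vehicle count and 33 had 1 to 3.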
